A study of Mus musculus with 9 samples.

Results

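The prostate lobe secretory genes described here are Sbp, Spink1, Crabp1, Pbsn, Msmb, Tgm4, Mmp7, Fgl1, Apof and Defb50. They were taken by gene name from the deposited count table and are 10 of its 54532 genes, and all 10 passed the low-count filter. Their RNA was measured by bulk polyA RNA-seq of mouse prostate tissue in 3 groups of 3 libraries: wild type (WT), heterozygous for a null allele of Srd5a2 (Het) and homozygous null (KO). Srd5a2 encodes the type II steroid 5-alpha-reductase, which makes dihydrotestosterone from testosterone. The mice descend from crosses of heterozygous males with wild-type C57BL6 females, the null animals are males of the third generation, and no treatment is stated. The sources used here do not give the animals' age, the lobes taken, the extent of the deletion, or whether a library comes from 1 mouse. The question put to these data was which of the 10 genes vary together from library to library, and with which lobe they are associated.

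The mouse prostate has paired anterior, dorsal, lateral and ventral lobes, and the luminal epithelial cells of each lobe secrete a different mixture of proteins into the seminal fluid. Much of this secretion depends on androgen. Spermine-binding protein (Sbp) and the Kazal-type trypsin inhibitor Spink1 are known androgen-dependent secretions of the ventral lobe, and the seminal vesicle is also known to make Spink1. Transglutaminase 4 (Tgm4), which cross-links seminal proteins into the copulatory plug, is a product of the dorsal and anterior lobes. Beta-microseminoprotein (Msmb) and probasin (Pbsn), a lipocalin whose promoter is widely used to drive transgenes in prostate epithelium, are known from the dorsolateral prostate. Crabp1 (a cytoplasmic carrier of retinoic acid), Mmp7 (matrilysin, a secreted metalloprotease), Fgl1 (a secreted fibrinogen-like protein), Apof (an apolipoprotein) and Defb50 (a beta-defensin) are given no lobe here. On the GRCm38 coordinates deposited with the counts, most of the genes lie far apart: Sbp at chr17:23941672-23945607, Msmb at chr14:32142023-32158370, Pbsn at chrX:77837901-77853623 and Apof at chr10:128268671-128270153. Crabp1 (chr9:54764748-54773110), Tgm4 (chr9:123034726-123067561) and Mmp7 (chr9:7692090-7699585) share chromosome 9, and Fgl1 (chr8:41191434-41215156) and Defb50 (chr8:21823539-21831296) share chromosome 8.

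RefSeq promoter windows on GRCm38.p6, from 250 bases before to 50 after an annotated RNA start, were found for 5 of the 10 genes: Sbp, Crabp1, Pbsn, Mmp7 and Tgm4. Of these, 4 are printed: Sbp and Crabp1, which were low in the same libraries, and Pbsn and Mmp7, which varied together in another way. Tgm4 also varied together with Pbsn and Mmp7, and its window is not printed. Capitals mark the androgen response half-site TGTTCT or its reverse complement.
Sbp, chr17:23941668-23941967, plus strand: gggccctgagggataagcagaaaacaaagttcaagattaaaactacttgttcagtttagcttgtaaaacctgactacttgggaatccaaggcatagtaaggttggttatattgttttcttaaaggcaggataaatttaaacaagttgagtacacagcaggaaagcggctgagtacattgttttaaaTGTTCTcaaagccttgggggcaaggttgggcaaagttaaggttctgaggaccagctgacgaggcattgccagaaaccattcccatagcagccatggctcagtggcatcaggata
Crabp1, chr9:54764498-54764797, plus strand: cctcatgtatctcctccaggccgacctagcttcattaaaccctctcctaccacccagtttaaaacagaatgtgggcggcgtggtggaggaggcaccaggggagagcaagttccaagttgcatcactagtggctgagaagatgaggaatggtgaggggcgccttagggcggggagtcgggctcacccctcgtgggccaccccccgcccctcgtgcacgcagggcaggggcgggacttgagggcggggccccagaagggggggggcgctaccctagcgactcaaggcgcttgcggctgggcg
Pbsn, chrX:77853451-77853750, minus strand: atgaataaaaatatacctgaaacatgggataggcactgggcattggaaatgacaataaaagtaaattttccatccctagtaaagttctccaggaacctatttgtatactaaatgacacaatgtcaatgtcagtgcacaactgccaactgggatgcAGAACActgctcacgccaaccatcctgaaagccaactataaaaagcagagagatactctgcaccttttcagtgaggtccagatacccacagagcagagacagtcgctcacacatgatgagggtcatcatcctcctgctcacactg
Mmp7, chr9:7691840-7692139, plus strand: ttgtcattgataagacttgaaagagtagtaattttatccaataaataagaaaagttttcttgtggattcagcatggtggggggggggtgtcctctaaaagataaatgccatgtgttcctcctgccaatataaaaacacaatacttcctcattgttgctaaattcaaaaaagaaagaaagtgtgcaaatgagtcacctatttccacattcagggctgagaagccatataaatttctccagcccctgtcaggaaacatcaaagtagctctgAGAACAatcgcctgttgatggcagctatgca

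The half-site was found on either strand in windows of 3 of the 5 genes (Sbp, Pbsn and Mmp7), and in 19.0% of the 32851 windows in the table. In the printed windows it began 64 bases before the annotated RNA start in Sbp, 95 before it in Pbsn and 19 after it in Mmp7. That Sbp start (23941918) lies within the deposited gene, which begins at 23941672. The Pbsn start (77853500) also lies within its deposited gene, which on the minus strand begins at 77853623. A further Mmp7 window, with its RNA start at 7692341, held the half-site 232 and 193 bases before that start. This start too lies within the deposited gene, which begins at 7692090. The match at 232 is the same site as in the printed window. The half-site was in neither of the other Sbp windows, including that with its RNA start at 23941678. Nor was it in those of Crabp1 and Tgm4. The full androgen response element was found in none of the 8 windows of these genes and in 0.475% of all windows. The forkhead core TGTTTAC was in none of the windows of the 5 genes (3.65% of all windows) and CAATAAA was in windows of Mmp7 and Pbsn (4.60%). The printed Sbp and Crabp1 windows differed in base composition, with 43.0% and 65.0% G and C, while those of Pbsn and Mmp7 had 43.3% and 39.0%.

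Depth and tissue markers set the frame for the values. Totals ran from 16233392 to 24017791 counts per library. Srd5a2 stood at 2.30 to 8.81 CPM (a gene's count relative to its library's total, with totals scaled by the TMM method) in WT, 2.37 to 5.19 in Het and 0.512 to 1.15 in KO. All 10 luminal epithelial markers checked, among them Krt8, Krt18 and Hoxb13, had counts in every library. Seminal vesicle markers were also present: 8 of the 9 listed genes are in the table, and their summed level ran from 6005 CPM in Het 1 to 333207 CPM in Het 2. Their part in the results below was not tested. In bulk tissue, fewer cells of a type and less RNA per cell cannot be told apart.

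Per unit of gene length, Sbp and Spink1 were among the most abundant transcripts of these prostates. Mean FPKM (counts scaled for gene length and depth, as deposited) over the 9 libraries was 32696 for Sbp and 15066 for Spink1, ranks 3 and 4 among all genes, and 7916 for Pbsn. Defb50 followed at 1739, Tgm4 at 1002, Msmb at 813 and Mmp7 at 594, and Crabp1, Fgl1 and Apof had 74.4, 64.5 and 53.0. These means hide wide ranges, so neighbours in this order overlapped over the libraries. Together the 10 genes held from 0.363% of all counts in Het 2 to 17.5% in Het 1, and without Sbp from 0.362% to 3.27%.

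**Figure D1:**
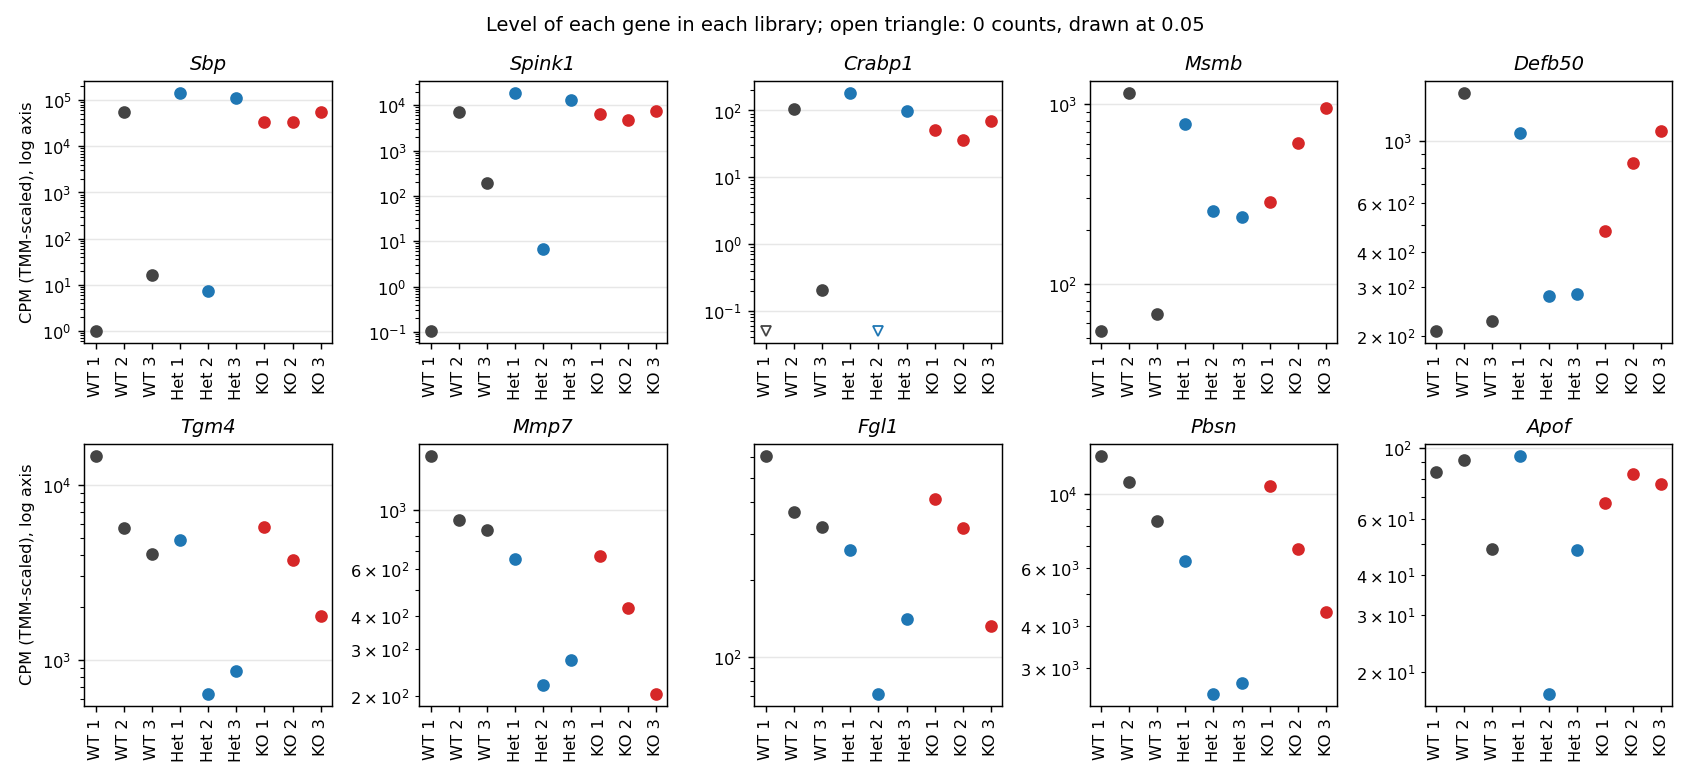
Level of each of the 10 genes in each library, in CPM on a log axis, with 1 point per library (grey WT, blue Het, red KO) and open triangles at 0.05 for counts of 0. Sbp, Spink1 and Crabp1 are low in WT 1, WT 3 and Het 2, Msmb and Defb50 are lowest in WT 1 and WT 3, and Tgm4, Mmp7, Fgl1 and Pbsn are highest in WT 1.

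Sbp was nearly absent from 3 libraries. It stood at 0.994, 55578 and 16 CPM in WT 1 to 3, at 143989, 7.26 and 113544 CPM in Het 1 to 3, and at 34575, 34372 and 56195 CPM in KO 1 to 3. WT 1, WT 3 and Het 2 held 19, 309 and 158 Sbp reads, while the other 6 libraries held at least 604256 each. Low and high libraries occurred within both the WT and the Het group, and all KO libraries were high. Sbp made up 14.3% of all counts in Het 1 and 11.2% in Het 3.

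Spink1 was low in the same 3 libraries, but to different degrees. It stood at 0.105, 7102 and 197 CPM in WT, 18833, 6.76 and 12942 CPM in Het, and 6494, 4793 and 7612 CPM in KO. WT 1 had 2 Spink1 reads and Het 2 had 147, against 3806 in WT 3. In WT 3 the FPKM of Sbp was 0.0233 times that of Spink1 and in Het 2 0.308 times, whereas in the 6 high libraries it was 1.53 to 2.52 times. Seminal vesicle genes differed between these libraries and not in 1 order. Het 2 had more than WT 3 of Svs2 (230595 and 127873 CPM), of Svs5 (91518 and 61329 CPM) and of the summed list (333207 and 206300 CPM), and about as much Svs4 (10946 and 10902 CPM). WT 3 had more than Het 2 of Svs6 (1892 and 77.1 CPM) and Svs1 (2487 and 12.3 CPM). Their part in the Spink1 value was not tested, and the KO libraries, with 2459 to 7670 CPM of Svs1, had both Sbp and Spink1 at high levels.

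Crabp1 had 0 reads in WT 1 and Het 2 and 4 in WT 3 (0.207 CPM), against 644 to 3389 reads in the other libraries. A count of 0 allows up to 0.157 CPM in WT 1 and 0.138 CPM in Het 2, taking 3 counts per library as the limit, which covers counting error only. In the other 6 it stood at 104 CPM in WT 2, 183 and 99.4 CPM in Het 1 and Het 3, and 51.7, 36.6 and 68.7 CPM in KO 1 to 3. The order of the 6 was close to that of Sbp, with Het 1 highest for each of Sbp, Spink1 and Crabp1 and KO 2 lowest.

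Keratins of luminal epithelium were present in these 3 libraries at levels near those of the other 6. Krt8 stood at 443, 450 and 428 CPM in WT 1, WT 3 and Het 2 and at 441 to 549 CPM in the other 6. Hoxb13, a transcription factor of prostate luminal cells, was at 261 CPM in WT 1 and 169 CPM in WT 3, but at 45.1 CPM in Het 2, the lowest of the 9 libraries. Summed seminal vesicle markers in the 3 libraries, at 66721, 206300 and 333207 CPM, reached both below and above the range of KO (90784 to 184629 CPM). Svs2 and Svs5 made up most of this sum, and in WT 3 and Het 2 each was above every KO library. Other genes of the sum went the other way. Svs4 in the 3 libraries (651, 10902 and 10946 CPM) was below every KO library (at least 11965 CPM). So was Svs6 (13.3, 1892 and 77.1 CPM, against at least 3285 CPM in KO).

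Other transcripts shared this pattern. By root mean square difference of centred log2 CPM over the 9 libraries, the genes most like Crabp1 were C2cd4a (0.50), Sbpl (0.57) and Spink5 (0.60). C2cd4a and Sbpl had 0 reads in each of WT 1, WT 3 and Het 2. Spink5, which encodes another Kazal-type inhibitor, had 19, 30 and 32 reads there and 660 to 2171 CPM elsewhere. Spink5, Sbpl and C2cd4a were also the genes most like Sbp (2.06, 2.17 and 2.24), and the non-coding BB123696 the one most like Spink1 (2.20). Sbpl is named as a gene like Sbp and lies beside it on chromosome 17, and because it is not known how reads were divided between them, its values are uncertain.

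Msmb and Defb50 formed a second pattern. Msmb stood at 54.4, 1153 and 67.3 CPM in WT, 772, 254 and 236 CPM in Het and 285, 609 and 952 CPM in KO. Defb50 stood at 208, 1488 and 225 CPM in WT, 1067, 276 and 281 CPM in Het and 475, 833 and 1089 CPM in KO. Both genes were highest in WT 2 and lowest in WT 1 and WT 3, and all groups overlapped. Het 2, which was nearly without Sbp, and Het 3, which was rich in it, had like levels of Msmb and of Defb50. Within a library the FPKM of Msmb was 0.166 and 0.189 times that of Defb50 in WT 1 and WT 3, and 0.380 to 0.582 times in the other 7. The tested genes most like Msmb were Syt17 (root mean square difference 0.60), 5033404E19Rik (0.63) and Smgc (0.64), and those most like Defb50 were Edn2 (0.43), Gm9869 (0.44) and Aqp5 (0.50). All of these averaged under 10 CPM.

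Tgm4, Mmp7, Fgl1 and Pbsn formed a further pattern. Tgm4 stood at 14713, 5647 and 4015 CPM in WT, 4871, 641 and 864 CPM in Het and 5763, 3724 and 1777 CPM in KO. It was highest in WT 1, the library with the least Sbp, and lowest in Het 2 and Het 3, of which 1 was poor and 1 rich in Sbp. Its groups overlapped in each comparison. Pbsn was also highest in WT 1 and lowest in Het 2 and Het 3, over a smaller range, at 13056, 10907 and 8323 CPM in WT, 6299, 2508 and 2697 CPM in Het and 10613, 6823 and 4416 CPM in KO. The lowest WT library thus stood above every Het library, while KO overlapped with both.

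Mmp7 stood at 1607, 921 and 845 CPM in WT, 658, 220 and 274 CPM in Het and 673, 430 and 204 CPM in KO. Every WT library was above every Het and KO library. Fgl1 stood at 609, 366 and 321 CPM in WT, 262, 71.7 and 140 CPM in Het and 411, 318 and 132 CPM in KO, so that WT lay above Het and overlapped with KO. The FPKM ratio of Mmp7 to Fgl1 within a library ran from 5.62 to 12.7, and that of Tgm4 to Mmp7 from 0.684 to 2.15. Mmp7 to Fgl1 was lowest in the KO libraries, at 5.62 to 6.80, against 8.11 or more in each WT and Het library. This difference was not tested. The genes most like them were C1s2, a complement protease, and Pgm2l1 for Tgm4 (0.32 and 0.33), Ren1, renin, and 9530053A07Rik for Mmp7 (0.25 for each), the mannosidase Man1a for Fgl1 (0.16) and Tmem97 and Tcaf2 for Pbsn (0.17 for each). The abundant 9530053A07Rik was highest in WT 1 (148522 CPM) and lowest in Het 2 (14098 CPM), where Mmp7 was highest in WT 1 and lowest in KO 3.

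Apof was lowest in Het 2. It stood at 84.2, 91.4 and 48.2 CPM in WT, 94.4, 17.1 and 47.9 CPM in Het and 67.4, 82.9 and 77.3 CPM in KO. Het 2 was low and the other 8 libraries lay within a factor of 2 of each other. By root mean square difference Apof was 0.629 from Pbsn and 0.637 from Fgl1, about as near as Msmb to Defb50 (0.634) and Pbsn to Tgm4 (0.601). Pbsn and Fgl1 were nearer to each other (0.281). The measure grows with the spread of a gene, so equal values do not mean equal likeness. Pearson's r of log2 CPM over 8 libraries was 0.434 for Apof with Pbsn and 0.337 with Fgl1, and neither pair passed the test given below. The tested genes most like it were Cdk14 (0.16), E130311K13Rik (0.18) and 2810410L24Rik (0.21).

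**Figure D2:**
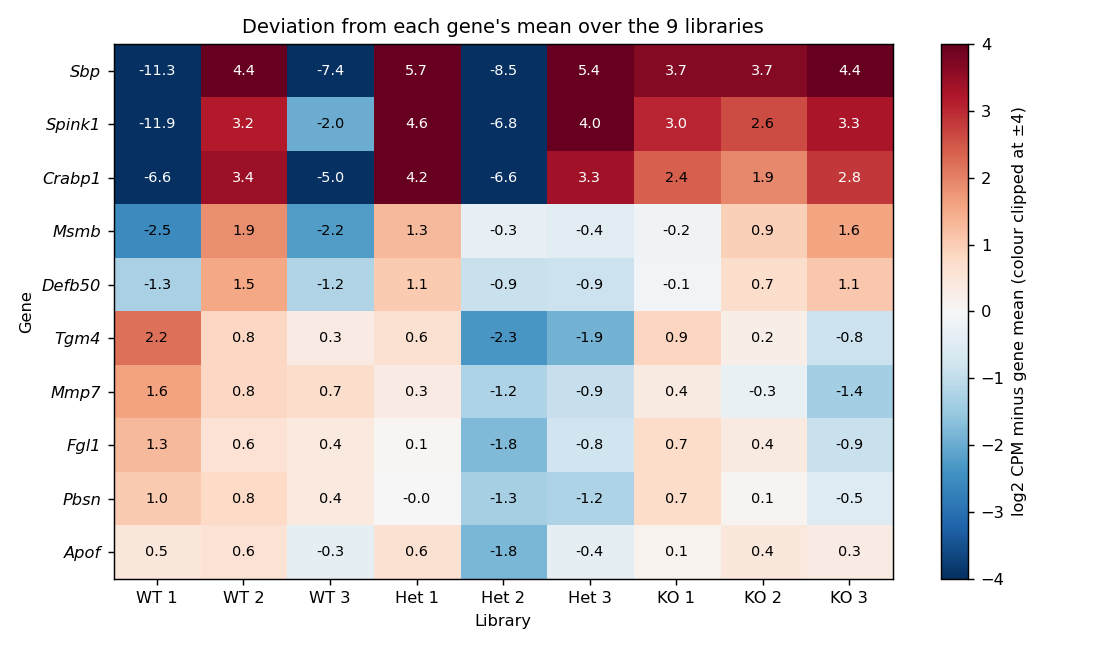
Log2 CPM of each gene (rows) in each library (columns) less that gene's mean over the 9 libraries, with the value printed in each cell and colour clipped at 4 in either direction. In WT 1, Sbp, Spink1, Crabp1, Msmb and Defb50 are below their means and the other 5 genes above them, and Het 2 is below the mean in each of the 10 genes.

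Correlations between genes across libraries were then tested. The 3 patterns were drawn from the same values, so these tests are no separate support for them. Exact permutation tests of Pearson's r of log2 CPM (two-sided, all orderings) were run on the 45 pairs of the 10 genes and adjusted over the 45. Where the libraries of a gene fell into separate clusters, with a gap of more than 50% of its range, only the larger cluster was used. This left 6 libraries for pairs with Sbp or Crabp1 and 8 for other pairs with Apof. Of the 45 pairs, 8 passed, each with a positive r, and 25 of the 45 had a positive r. The same count, 8, passed with Spearman's rho. Each of these 8 pairs lay within 1 of the 3 patterns, which follows in part from how the patterns were drawn. With 1 library left out, pairs outside them also passed: Spink1 with Defb50 without Het 3 (r = 0.831, exact permutation adjusted p = 0.0307), and Apof with Defb50 and with Msmb without WT 1 (r = 0.959 and 0.886, exact permutation adjusted p = 0.0238 and 0.0268). That cross-pattern pairs are less correlated was not itself tested.

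Sbp and Spink1 gave r = 0.969 over the 6 libraries rich in Sbp (exact permutation p = 0.00139, adjusted p = 0.00781, rho = 1, exact p = 0.00278 and adjusted p = 0.0179), and r = 0.789 without Het 1 and Het 3, the 2 libraries farthest from the median of Sbp. With the genotype means removed r was 0.797 and the pair no longer passed (permutation adjusted p = 0.207). Of these 6 libraries WT 2 is the only WT library, so its deviation was fixed, and those of Het 1 and Het 3 mirrored each other. That p is therefore not exact, and the r rests on few free values. Crabp1 gave r = 0.899 with Sbp and 0.9 with Spink1, which did not pass (exact permutation p = 0.0208 and 0.0167, adjusted p = 0.0921 and 0.0833). Spearman's rho was 0.829 for each (exact p = 0.0583, adjusted p = 0.239), and r without 2 libraries 0.863 and 0.818. Its shared low libraries lie outside these 6 and are given above as values. Over 9 libraries, Spink1 with Msmb gave r = 0.736 (exact permutation p = 0.0225, adjusted p = 0.0921) and with Defb50 r = 0.689 (exact p = 0.0337, adjusted p = 0.126), so neither passed. Spearman's rho was 0.6 and 0.7 (exact p = 0.0968 and 0.0433, adjusted p = 0.363 and 0.216), and r without Het 2 and WT 1 was 0.749 and 0.565.

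Msmb and Defb50 gave r = 0.938 over 9 libraries (exact permutation p = 1.1e-05, adjusted p = 0.000496, rho = 0.983, exact p = 4.96e-05 and adjusted p = 0.00223), and r = 0.978 without WT 1 and WT 3. The 6 pairs of Tgm4, Mmp7, Fgl1 and Pbsn gave r from 0.899 to 0.966 over 9 libraries and all passed (exact permutation adjusted p from 0.000744 to 0.00741). The highest was Pbsn with Tgm4 (r = 0.966, exact p = 6.61e-05, adjusted p = 0.000992, rho = 0.933, exact p = 0.00075 and adjusted p = 0.00843, and r = 0.889 without Het 2 and Het 3). The lowest was Pbsn with Mmp7 (r = 0.899, exact p = 0.00115, adjusted p = 0.00741, rho = 0.917, exact p = 0.00131 and adjusted p = 0.00984, and r = 0.903 without the same libraries). Tgm4, of the dorsal and anterior lobes, and Msmb, of the dorsolateral prostate, gave r = -0.205 (rho = -0.05), which did not pass (exact p = 0.596 and 0.912, adjusted p = 0.915 and 1). Without WT 1 and WT 3 its sign turned (r = 0.565), so the negative value rests on those libraries. Pbsn and Msmb, both known from the dorsolateral prostate, gave r = -0.178 over 9 libraries (rho = -0.083). This pair did not pass either (exact permutation p = 0.643 and 0.843, adjusted p = 0.914 and 0.9985), and r was -0.538 without Het 2 and Het 3. Over the 6 libraries rich in Sbp, r of Pbsn with Msmb was 0.344 (exact permutation adjusted p = 0.853). Varying together was thus not seen in this pair of genes given the same lobe, and a failed test does not show its absence. Apof with Defb50 gave r = 0.685 over 8 libraries (exact p = 0.0668, adjusted p = 0.231, rho = 0.476, exact p = 0.243 and adjusted p = 0.643, and r = 0.365 without Het 3 and WT 3). Over all libraries used Apof passed with no gene, and without WT 1 it passed with Defb50 and Msmb, as given above.

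**Figure D3:**
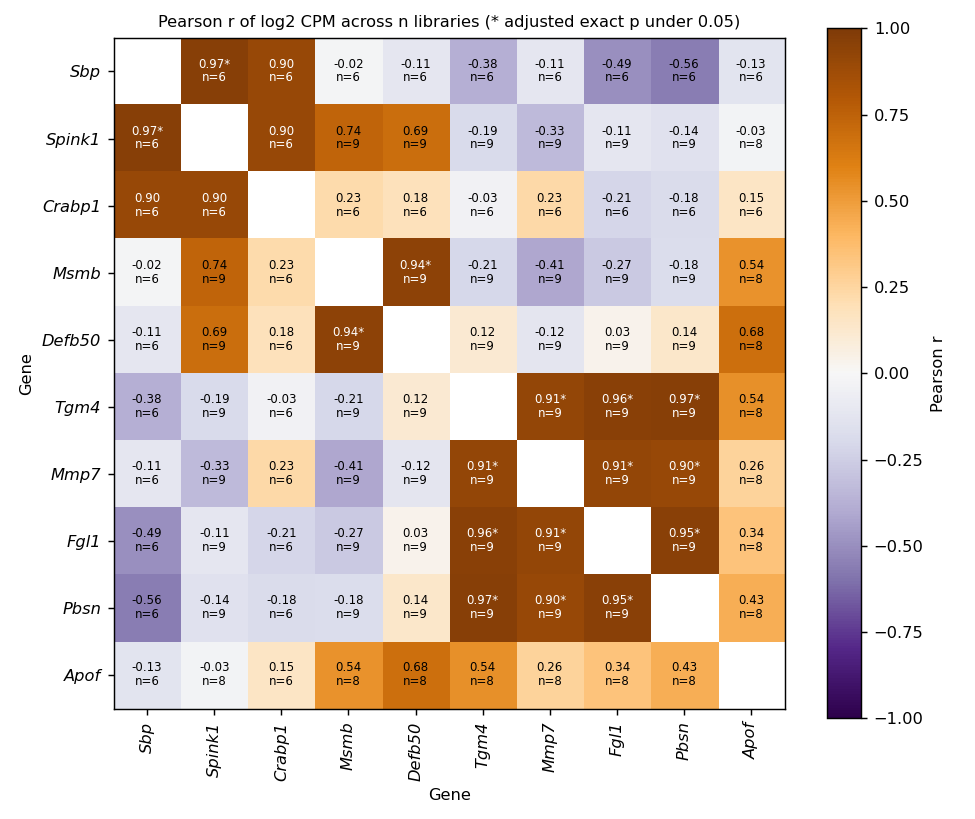
Pearson's r of log2 CPM for each pair of the 10 genes, with n, the number of libraries used, printed in each cell and an asterisk where the adjusted exact permutation p was under 0.05. The 8 pairs with an asterisk are Sbp with Spink1, Msmb with Defb50, and the 6 pairs of Tgm4, Mmp7, Fgl1 and Pbsn.

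Ratios of 2 genes within 1 library do not depend on how libraries are scaled, and the pairs of genes for these were chosen after their values were seen. The FPKM of Sbp was 407 times that of Tgm4 in Het 3 and 0.000209 times in WT 1. Msmb was 4.14 times Tgm4 in KO 3 and 0.0286 times in WT 1. Msmb to Defb50 moved over a 3.51-fold range, Tgm4 to Mmp7 over 3.14-fold and Mmp7 to Fgl1, which was lowest in the KO libraries, over 2.27-fold. Sbp to Spink1, a pair of the first pattern, did not keep such a narrow range, at 0.0233 in WT 3, 0.308 in Het 2 and up to 2.52 in Het 3, leaving out WT 1 with its 2 Spink1 reads. Pbsn to Tgm4 moved over 4.41-fold, from 4.48 in WT 1 to 19.8 in Het 2.

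**Figure D4:**
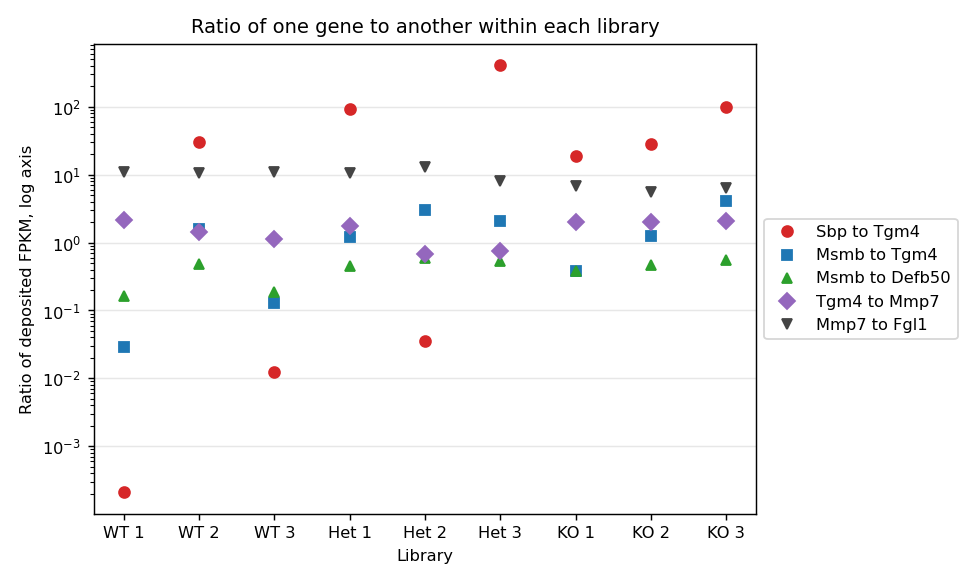
Ratio of the deposited FPKM of one gene to another within each library, on a log axis, with 1 symbol per ratio. Sbp to Tgm4 runs from 0.000209 in WT 1 to 407 in Het 3, while Tgm4 to Mmp7 stays between 0.684 and 2.15.

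The spread within a genotype was very large for Sbp, Spink1 and Crabp1 and less so for the others. The pooled SD of log2 CPM within genotypes was 6.65 for Sbp and 5.78 for Spink1, the highest and second highest of the 16836 genes tested, and 4.65 for Crabp1, the sixth. It was 1.61 for Msmb, 1.18 for Tgm4 and for Defb50, and 0.592 to 0.786 for Pbsn, Mmp7, Apof and Fgl1. The median over all genes tested was 0.448. Pbsn stood at percentile 60.3 of the genes tested and Fgl1 at 70.0, with Mmp7 and Apof between them. Within KO the range of Sbp was 0.71 on the log2 scale, and within WT and Het 15.63 and 14.25. Differences between genotypes among the 10 genes accounted for the largest part in Pbsn, where 35.1% of the variance lay within genotypes, and in Mmp7 (40.9%). The median over all genes was 75.4%.

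In KO against WT, no secretory gene passed the test against the spread between libraries. edgeR's quasi-likelihood test called 0 of the 10 at an adjusted p under 0.05, as it called 0% of all 16836 genes, and DESeq2, limma voom and voom with library quality weights called 0 of the 10 (DESeq2 called 14 genes in all, 0.0832%, and both voom fits 0%). At an unadjusted p under 0.05 stood 1 of the 10, Mmp7, and 3.57% of all genes. Mean Mmp7 was 436 ± 235 CPM over the KO and 1124 ± 419 over the WT libraries (SD, n = 3 each), a log2 fold change of -1.37 (SE 0.54, 95% interval -2.61 to -0.13, edgeR adjusted p = 0.9996). It was also the 1 of 10 whose KO and WT libraries did not overlap, which held for 14.2% of all genes. The median log2 fold change was 0.17 over the 10 genes (6 positive) and 0.01 over all genes tested.

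The intervals of the Sbp pattern were very wide in KO against WT. Mean Sbp was 41714 ± 12541 CPM over the KO and 18532 ± 32083 over the WT libraries (SD, n = 3 each), a log2 fold change of 1.17 with a 95% interval of -6.06 to 8.40. Spink1 had 1.37 (-4.75 to 7.5) and Crabp1 0.59 (-4.77 to 5.94). Without WT 1, WT 3 and Het 2 these values were -0.41, -0.17 and -0.99, with WT 2 as the only WT library, assumed to vary like the others. The direction in KO against WT thus turned with those libraries for these 3 genes. Without WT 2, the only WT library rich in Sbp, they were 12.29, 6.02 and 8.93, and none passed in edgeR. With 4 Crabp1 reads or fewer in the remaining WT libraries, its value depends on the prior count. Tgm4 had -1.11 (-3.14 to 0.92), Fgl1 -0.59 (-1.83 to 0.65), Pbsn -0.56 (-1.49 to 0.37), Msmb 0.53 (-2.23 to 3.30), Defb50 0.32 (-1.73 to 2.37) and Apof 0.02 (-1.17 to 1.22).

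In Het against WT, Pbsn, Mmp7 and Fgl1 averaged lower in Het, and none passed in edgeR (0 of the 10, with 0% of all genes called). Mean Pbsn was 3835 ± 2136 CPM over the Het and 10762 ± 2370 over the WT libraries (SD, n = 3 each), a log2 fold change of -1.49 (SE 0.42, 95% interval -2.44 to -0.54, edgeR adjusted p = 0.417). DESeq2 called it (-1.45, adjusted p = 0.037, with 1.22% of all genes called), as did limma voom with library quality weights (-1.92, adjusted p = 0.0263, 4.71% of all genes), and edgeR without Het 1 (-2.05, adjusted p = 0.0321, 1.47% of all genes). Under every other alternative run its adjusted p was 0.05 or more. Mmp7 averaged 384 ± 239 CPM in Het (log2 fold change -1.55, SE 0.54, edgeR adjusted p = 0.475) and Fgl1 158 ± 96.2 against 432 ± 155 CPM (-1.45, SE 0.55, edgeR adjusted p = 0.493).

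These were the 3 of 10 genes at an unadjusted p under 0.05 in Het against WT, where 9.04% of all genes stood, and the 3 of 10 whose Het and WT libraries did not overlap, as in 13.3% of all genes. All 3 belong to the pattern of Tgm4, which had -1.93 (95% interval -4.01 to 0.14), so they do not count as independent observations. Of the rest, Sbp had 2.21 (-5.25 to 9.67), Spink1 2.12 (-4.15 to 8.39) and Crabp1 1.43 (-4 to 6.87), and without WT 2 these were 13.34, 6.79 and 9.79, of which none passed in edgeR. Apof had -0.49 (-1.69 to 0.71), Defb50 -0.24 (-2.29 to 1.81) and Msmb -0.01 (-2.77 to 2.74). The median was -0.37 over the 10 genes (3 positive) and 0.00 over all genes.

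In KO against Het, edgeR called 0 of the 10 genes and 0% of all genes, and DESeq2 and both voom fits called 0 of the 10. Over all genes DESeq2 called 169 (1%), voom 0% and voom with quality weights 319 (1.89%). None of the 10 stood at an unadjusted p under 0.05 (6.22% of all genes) or had groups that did not overlap (11.9%). Pbsn had 0.93 (95% interval -0.01 to 1.86), Fgl1 0.86 (-0.39 to 2.11), Tgm4 0.82 (-1.20 to 2.84) and Sbp -1.04 (-8.25 to 6.17). Spink1 had -0.75 and Crabp1 -0.85. The direction of these 3 turned with voom, to 3.01 for Sbp, 2.37 for Spink1 and 3.18 for Crabp1, where the median over all genes was 0.11. The median was 0.53 (7 of 10 positive), against 0.02 over all genes. This comparison and KO against WT share the KO libraries, and Het against WT shares its libraries with both.

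Of 26 other genes listed as secreted products of prostate epithelium, 23 were tested and 0 passed in edgeR in either direction in any comparison (16 were positive in KO against WT, 14 in Het against WT and 11 in KO against Het). The list was made with earlier results of these data known. Whether the RNA of its genes came from prostate or from seminal vesicle tissue was not tested. Of 18 secretory pathway genes, which serve protein folding and export, 0 passed. In KO against WT 0 of 18 were positive (median -0.28), in Het against WT 2 (median -0.54) and in KO against Het 12 (median 0.19). Medians over all genes were 0.006, -0.0003 and 0.018. KO against WT and Het against WT share the WT libraries, and whether the 18 genes vary together was not tested. Calr and Hspa5, chaperones of the endoplasmic reticulum, were highest in WT 2 (2003 and 2788 CPM) and lowest in Het 2 (948 and 1147 CPM).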

How the data were processed

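The authors deposited raw read counts per gene for 9 polyA libraries, whole numbers that are not normalised, and FPKM values per library. Build GRCm38 (mm10) is named per the submitters' processing notes, and the sources used here give no aligner, counting program or strand setting. Deposited FPKM values follow the counts divided by gene length, with 1 factor per library. A further deposited table of group means was not used. Genotypes come from library names, and replicate numbers follow accession order. Nothing in the labels says that libraries are separate animals, so the p-values cover only variation among these libraries, which may be technical.

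Counts were tested with edgeR 4.0.16 (R 4.3.3; filterByExpr, TMM, robust quasi-likelihood, genotype as the only factor, all 9 libraries), which kept 16836 genes. P-values were adjusted by Benjamini-Hochberg over all genes tested, with calls under 0.05, and intervals are at 95%. Standard errors are the log2 fold change over the square root of F. Log2 CPM used a prior count of 2. Scripts were tested on simulated data. DESeq2 1.42.0 and limma 3.58.1 were alternatives.

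The 10 genes, the lists and the tests were chosen with earlier results of these data known. Named beside the 10 genes are Srd5a2, up to 4 genes per list with the highest FPKM, and the 3 tested genes most like each of the 10. Svs1, Spink5 and Hoxb13 were named after their values were seen.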

Additional observations from a re-analysis of the deposited data

How the results depend on the processing

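Of the log2 fold changes of the 10 genes, 280 kept their direction and stayed on their side of the threshold under settings other than leaving out 1 library, 18 turned in sign and 2 newly passed. With 1 library left out, 253 kept both, 16 turned and 1 newly passed. All of those that turned were below the threshold before and after. The count of genes called was 0 in each comparison under each setting, except 1 (Pbsn) in Het against WT with DESeq2, with voom and quality weights, and without Het 1, a range of 0 to 1 over the 9 omissions.

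In Het against WT, Msmb turned from -0.0147 to 0.0227 (DESeq2 size factors in edgeR), 0.0229 (DESeq2), 0.0128 (library sizes without genes over 1%), 0.0060 (no filter), 0.0316 (at least 1 CPM in 3 libraries), 1.14 (voom) and 0.33 (voom with quality weights), and Defb50 to 0.0832 (voom). In KO against Het, voom gave 3.01 for Sbp, 2.37 for Spink1 and 3.18 for Crabp1. Without WT 1, WT 3 and Het 2, KO against WT turned to -0.41 for Sbp, -0.17 for Spink1, -0.99 for Crabp1, -0.90 for Defb50, -0.90 for Msmb and -0.27 for Apof, and KO against Het to -0.0913 for Mmp7. The cause was not tested. With 1 library left out, values that turned ranged over -0.22 to 0.25 (Apof), -0.0068 to 8.93 (Crabp1) and -0.10 to 1.93 (Defb50) in KO against WT, -1.20 to 1.38 (Defb50) and -0.80 to 2.84 (Msmb) in Het against WT, and -1.45 to 0.0822 (Crabp1) and -0.28 to 0.82 (Mmp7) in KO against Het.

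Of the 45 pairs, 8 to 10 passed without 1 library, the same 8 among them each time. Gained were Spink1 with Defb50 without Het 3, Apof with Msmb and with Defb50 without WT 1, and Crabp1 with Sbp and with Spink1 without WT 2. The same 8 passed under both other scalings, a prior count of 0.5 and log2 FPKM with 0.1 added. With genotype means removed 8 passed, 7 of them the same. Sbp with Spink1 was lost (r = 0.797) and Spink1 with Crabp1 gained (r = 0.991). Deviations from genotype means are not freely exchangeable, so the permutation p-values of this setting are approximate. This holds most for these 2 pairs, where WT 2 was the only WT library. An alternative chosen after seeing the data, all pairs within the 6 libraries rich in Sbp, passed 2, Sbp with Spink1 and Msmb with Defb50. The 6 pairs of Tgm4, Mmp7, Fgl1 and Pbsn then had r from 0.840 to 0.955 (exact permutation adjusted p from 0.0833 to 0.135), with fewer libraries. No paired analysis was possible because the replicate numbers follow accession order and pair nothing.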

Other observations

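Other abundant genes listed as secreted products did not all follow the patterns above, and the tissue their RNA came from was not tested. 9530002B09Rik stood at 2985, 6042 and 1912 CPM in WT, 10265, 659 and 6741 CPM in Het and 5171, 3977 and 4437 CPM in KO, so that WT 1, WT 3 and Het 2 were the 3 lowest libraries, but by far less than for Sbp. Pate4 stood at 5521, 2782 and 14697 CPM in WT, 590, 25999 and 8846 CPM in Het and 5921, 5384 and 8994 CPM in KO. Its order over the libraries was near that of the seminal vesicle gene Svs2. Both genes were highest in Het 2, followed by WT 3, KO 3 and Het 3, and lowest in Het 1, with WT 2 next. Svs2 stood at 230595 CPM in Het 2 and 3901 CPM in Het 1. Spinkl, a Kazal-type inhibitor gene, had 0 reads in Het 1 and stood at 1450 CPM in KO 3 and 413 CPM in Het 2. Crisp1, a marker of the epididymis and vas deferens, had 0 reads in Het 1 and stood at 3570 CPM in Het 3.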
